A study of Mus musculus with 7 samples.

Results

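Neutrophil granule and maturation genes were followed in RNA from the spleens of ovalbumin-sensitised mice, as 34 genes that were taken by symbol from the 54532 genes of the deposited table. They comprised 5 genes of primary granules or of the progenitors that make them, 12 genes of secondary or later granules, and 17 genes of the mature cell. All 34 were in the table, and 34 of 34 passed the filter on low counts that left 15795 genes for testing. The classes were assigned from general knowledge of granulocyte development and not from these values. RNA had been sequenced in bulk in 7 libraries of sorted spleen cells labelled as follicular helper T (Tfh) cells. The 3 wild-type libraries and the 4 Mst1 knockout libraries all came from mice given ovalbumin by the intraperitoneal route, and no further treatment was recorded. The knockout titles give Mst1∆CD4, a notation that usually means deletion in the lineage of Cd4-expressing cells, and no source used here says in which other cells it may act. The replicates are called biological, while age, sex, the Cre driver, and whether animals were pooled are not given in the sources used here.

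Neutrophils form their granules in sequence as they mature in the marrow and, in mice, also in the spleen. Promyelocytes transcribe the genes of primary (azurophil) granules, among them myeloperoxidase and the serine proteases. Myelocytes and metamyelocytes switch these off and transcribe the genes of secondary granules, such as lactoferrin, and mature cells finally transcribe chemokine receptors and inflammatory genes. The granule proteins persist in mature cells after transcription of their genes has declined, so that granule transcripts mark the immature stages better than the proteins do.

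The labelled cell type was checked before the neutrophil genes were read. Total counts ran from 16789158 to 18375275 per library. Markers of T cells were present in all 7 libraries, but the summed level of 10 such markers was 223 to 327 FPKM (fragments scaled to gene length and sequencing depth) in the wild-type libraries and 61.2 to 126 FPKM in the knockout libraries. The neutrophil gene S100a9 alone stood at 7743 ± 409 FPKM (SD, n = 3) and 4862 ± 1205 FPKM (n = 4). Transcripts of the 34 genes took 1.94 to 2.57% of all counts in wild-type libraries and 1.45 to 2.08% in knockout libraries. In bulk RNA, fewer cells of a type and less RNA per cell cannot be told apart. Stk4, which encodes the kinase MST1, stood at 327 ± 10.1 CPM, the counts scaled to library size, in wild-type and 293 ± 7.34 CPM in knockout libraries, and the difference was not called (edgeR log2 fold change -0.16, SE 0.08, adjusted p = 0.225). Its groups did not overlap, at 316 to 336 CPM in wild-type and 287 to 302 CPM in knockout libraries, as for 14.7% of all genes tested in this direction. A different gene carries the symbol Mst1 and encodes the macrophage-stimulating protein. It stood at 9.41 ± 2.08 and 1.39 ± 0.424 CPM and fell (edgeR log2 fold change -2.75, SE 0.28, adjusted p = 0.000844). Which of the genes the labels mean by Mst1 is not stated in them, and groups were used as labelled.

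In wild-type spleen cells the most abundant neutrophil transcripts per length were S100a9 and S100a8, the subunits of calprotectin, a calcium- and zinc-binding protein of the neutrophil cytosol. S100a8 averaged 4092 ± 916 FPKM (SD, n = 3). The secondary granule genes followed, with Ngp at 3322 ± 527 FPKM, Camp at 1879 ± 70.2 FPKM, Chil3 at 1195 ± 326 FPKM and Ltf at 732 ± 98.4 FPKM. Elane led the primary granule genes at 301 ± 88.4 FPKM, and Il1rn, the gene of the interleukin 1 receptor antagonist, closed the order at 3.07 ± 0.669 FPKM. Of the 33 neighbouring pairs in this order, 25 overlapped in the range of their wild-type libraries. S100a9 did not overlap S100a8, and Ngp did not overlap Camp.

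**Figure D1:**
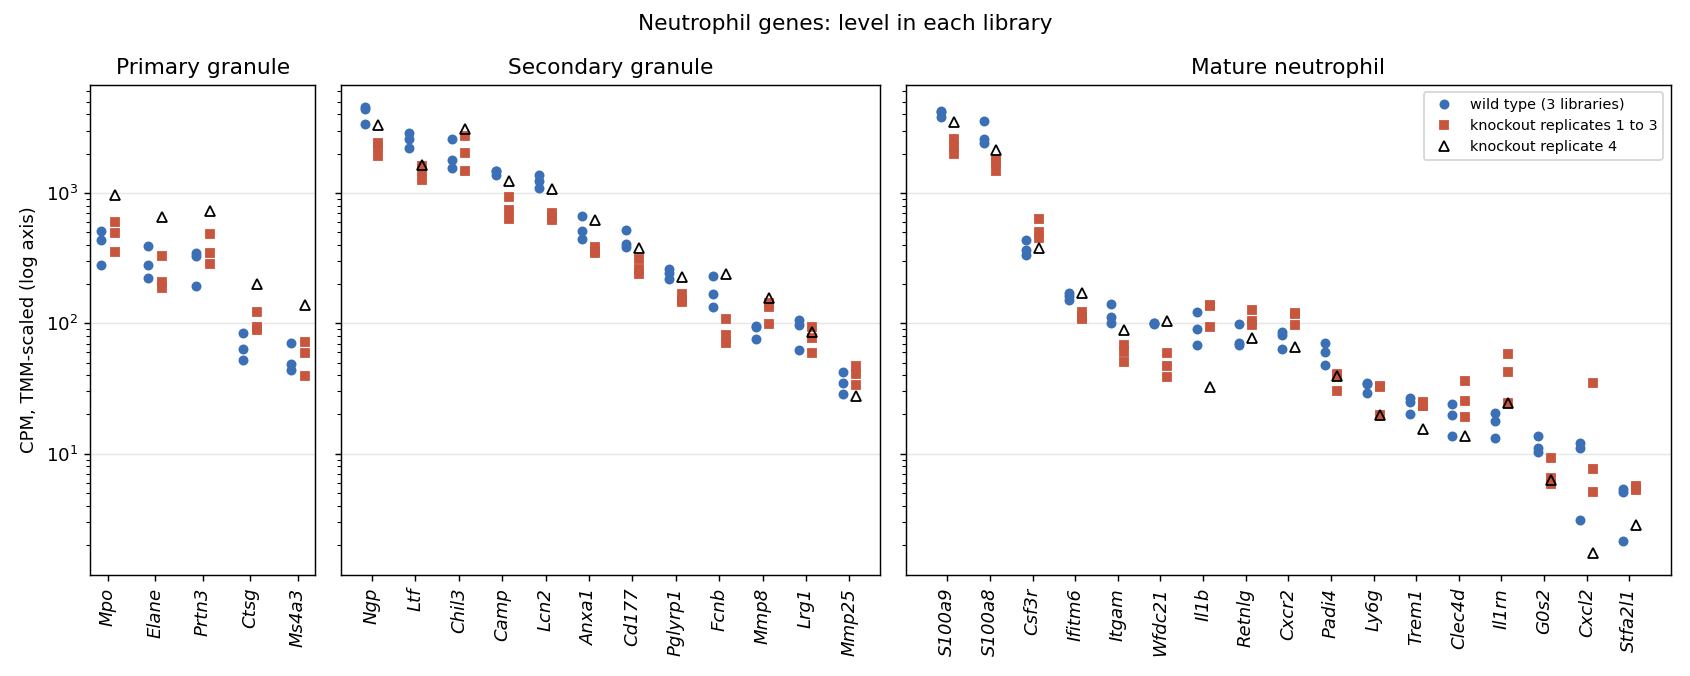
Level of each of the 34 genes in each library, in CPM on a log axis, with the 3 wild-type and 4 knockout libraries as separate points and genes grouped by class. The highest points are those of Ngp and S100a9, and the knockout points of Ltf, Ngp and Lcn2 lie below all wild-type points.

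Across the 34 genes, the knockout libraries held less transcript of 3 secondary granule genes and 5 mature genes, and more of the secondary granule gene Mmp8. The test called 8 genes lower in the knockout libraries, which were Ltf, Ngp, Lcn2, S100a8, S100a9, Padi4, G0s2 and Itgam, and 1 higher, Mmp8, at an adjusted p under 0.05. That is 23.5% lower and 2.94% higher, beside 6.83% lower and 8.71% higher among all genes tested, of which 15.5% were called in either direction. The median log2 fold change of the 34 genes was -0.15, where all genes tested had a median of -0.0019. Groups did not overlap for 10 genes in the lower direction, the 8 called ones with Camp and Cd177, and for Ctsg, Mmp8 and Il1rn in the higher, beside 14.7% and 15.4% of all genes tested, or 30.0% in either direction.

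**Figure D2:**
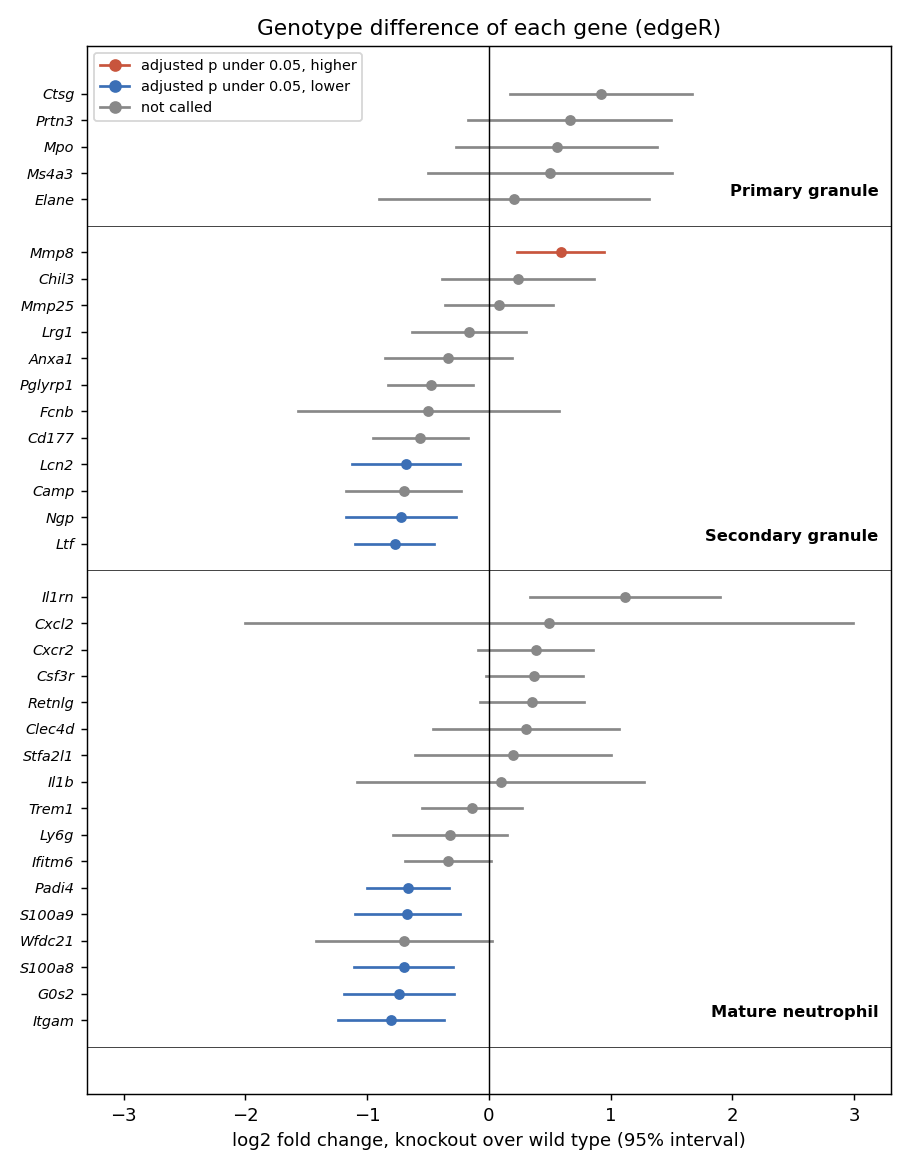
Log2 fold change (knockout minus wild type) of each gene with its 95% interval, grouped by class, with called genes marked. The 5 primary granule genes lie above 0, and 9 of the 12 secondary granule genes lie below it.

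Counts and medians differed by class. All 5 primary granule genes had estimates above 0 with a median log2 fold change of 0.56, and edgeR called none. Without knockout replicate 4 the median was 0.24 and Elane lay below 0, and without wild-type replicate 1 the median was 0.37. At an unadjusted p under 0.05 there was 1, Ctsg, which DESeq2 called and limma-voom did not. The shared direction of this class holds with Fcnb placed among the secondary granule genes. Counting Fcnb as a primary granule gene, also tried, adds an estimate of -0.50 that was not called. In the secondary granule class 3 of 12 were called lower and 1 higher, with a median of -0.49. In the mature class 5 of 17 were called lower and none higher, with a median of -0.14, 1 gene (Il1rn) higher at an unadjusted p under 0.05, and estimates from -0.80 to 1.12. The difference between classes was not tested.

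The promoters of 5 genes are shown to set the sequence beside the values, those of called genes of the secondary class (Ltf, Ngp and Mmp8) and of 2 primary granule genes (Elane and Ctsg). RefSeq windows of the assembly GRCm38.p6 were available for 33 of 34 genes, and each was searched over the 250 bases before the start. The letters searched, on either strand, were TTGCNNAA for C/EBP, GAGGAA for PU.1 and TGTGGT for RUNX, factors of granulopoiesis. Capitals mark these letters, no 2 different motifs overlap in the 5 sequences, and each sequence ends before any annotated transcript start in its window and overlaps no annotated exon of its gene. The window of Lcn2 overlaps an exon of another of its transcripts and is not shown. The windows are Ltf chr9:111019042-111019270 (plus strand), Ngp chr9:110419558-110419746 (plus), Mmp8 chr9:7558179-7558428 (plus), Elane chr10:79886062-79886246 (plus) and Ctsg chr14:56102575-56102824 (minus).
Ltf: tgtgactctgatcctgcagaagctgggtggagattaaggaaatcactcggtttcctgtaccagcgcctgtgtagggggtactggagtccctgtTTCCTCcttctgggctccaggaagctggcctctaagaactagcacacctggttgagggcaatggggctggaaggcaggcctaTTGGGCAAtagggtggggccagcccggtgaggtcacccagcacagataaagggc
Ngp: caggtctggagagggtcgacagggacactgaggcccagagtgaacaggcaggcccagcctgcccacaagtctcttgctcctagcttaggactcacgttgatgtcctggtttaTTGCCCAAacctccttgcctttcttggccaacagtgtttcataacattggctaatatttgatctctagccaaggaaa
Mmp8: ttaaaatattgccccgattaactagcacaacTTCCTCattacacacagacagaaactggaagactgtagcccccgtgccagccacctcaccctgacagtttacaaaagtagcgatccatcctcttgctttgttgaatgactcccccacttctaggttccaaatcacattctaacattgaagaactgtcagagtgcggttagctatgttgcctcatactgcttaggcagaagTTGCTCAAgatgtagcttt
Elane: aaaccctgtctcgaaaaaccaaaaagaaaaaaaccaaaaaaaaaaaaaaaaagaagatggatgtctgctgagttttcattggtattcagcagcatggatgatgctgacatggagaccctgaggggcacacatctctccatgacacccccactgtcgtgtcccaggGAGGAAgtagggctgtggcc
Ctsg: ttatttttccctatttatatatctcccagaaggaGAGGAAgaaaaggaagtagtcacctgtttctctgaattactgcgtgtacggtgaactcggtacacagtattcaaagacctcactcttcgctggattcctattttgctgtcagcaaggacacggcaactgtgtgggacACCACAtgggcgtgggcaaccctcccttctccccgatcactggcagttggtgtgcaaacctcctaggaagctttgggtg
The C/EBP letters were in 9 of 33 windows of the neutrophil genes, in 6 of 12 for the secondary granule class and in none of 5 for the primary class, beside 9.56% of all 32851 windows. Ltf, Ngp, Lcn2 and Mmp8 all hold them, the first 3 lower and Mmp8 higher in the knockout. The others that hold them are S100a9, called lower, and Fcnb, Anxa1, Ly6g and Retnlg, not called. The called genes S100a8, Padi4, G0s2 and Itgam lack them. The PU.1 letters were in 19 of 33 windows and in 4 of 5 of the primary class, beside 23.3% of all windows. The RUNX letters were in 4 of 33, beside 14% of all windows, and Ctsg holds them. These matches describe letters in a window and say nothing of binding.

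One library stood apart within its group. Knockout replicate 4 was the highest knockout library for 5 of 5 primary granule genes and for 10 of 12 secondary granule genes, and the lowest for 8 and the highest for 5 of 17 mature genes. Without it the test called 14 of the 34 genes lower and 2 higher, while without knockout replicate 1, 2 or 3 it called 3, 3 and 5 genes in all, and 2 genes without any 1 of the wild-type replicates. The 2 higher genes were then Cxcr2 and Il1rn. The 14 lower ones were Ltf, Ngp, Lcn2, S100a8, S100a9, Padi4 and Itgam, joined by Camp, Cd177, Pglyrp1, Fcnb, Anxa1, Wfdc21 and Ifitm6, while Mmp8 and G0s2 were no longer called. Over all genes the number called fell from 2455 to 1326, 1050 and 1161 without wild-type replicates 1, 2 and 3, and it was 2243, 1384, 2553 and 2203 without knockout replicates 1 to 4. Over all genes, 6.57% were lower and 7.66% higher without knockout replicate 4. Values without it are given for the primary granule genes and beside the calls that it changes. Of the other genes, called neither with nor without it, 8 moved by over 1.5 times without it, to 0.08 for Chil3, 0.21 for Mmp25, 0.50 for Clec4d, 0.86 for Cxcl2, 0.40 for Il1b, 0.39 for Stfa2l1, -0.20 for Ly6g and 0.00030 for Trem1 on the log2 scale.

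Elane (chromosome 10, 79886247 to 79888215, plus strand, GRCm38), the gene of neutrophil elastase, stood at 223, 279.6 and 393 CPM in wild-type replicates 1 to 3 and at 188, 330.2, 206 and 656 CPM in knockout replicates 1 to 4. The groups overlapped, and knockout replicates 1 and 3 lay below the wild-type range while replicate 4 lay above it. The log2 fold change of 0.21 (SE 0.47, 95% interval -0.90 to 1.32) was not called (edgeR adjusted p = 0.80), and it was -0.30 without knockout replicate 4. Mpo, the gene of myeloperoxidase, which makes hypochlorous acid, read 279.8, 439 and 509.5 CPM in wild type and 349, 599, 494 and 966 CPM in knockout libraries. Prtn3, the gene of proteinase 3, read 193, 331 and 348 CPM in wild type and 345, 483, 284 and 730.1 CPM in knockout libraries. Both genes overlapped between groups, and their log2 fold changes of 0.56 (SE 0.36) and 0.66 (SE 0.36) were not called (edgeR adjusted p = 0.331 and 0.25). Without knockout replicate 4 they were 0.24 and 0.35. Prtn3 overlaps the opposite-strand gene Plppr3, whose counts came to 10.1% of its own, and the strand setting of the counting is not given.

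Ctsg (chromosome 14, 56099881 to 56102574, minus strand), the gene of cathepsin G, was the one primary granule gene whose groups did not overlap. It read 52.2, 63.9 and 84.8 CPM in wild type and 93.9, 123, 88.7 and 202 CPM in the knockout libraries, all 4 of which lay above the wild-type range. Its log2 fold change was 0.92 (SE 0.32, 95% interval 0.18 to 1.67), with an edgeR adjusted p of 0.0934 that did not pass, and 0.61 without knockout replicate 4 (adjusted p = 0.0754). DESeq2 called it higher. Ms4a3, a membrane protein gene that marks granulocyte and monocyte progenitors in the mouse, read 43.8, 48.4 and 70.7 CPM in wild type and 59.4, 71.8, 39.3 and 138 CPM in knockout libraries. Its groups overlapped (log2 fold change 0.50, SE 0.42, adjusted p = 0.466), and the log2 fold change was 0.069 without knockout replicate 4. In all 5 genes of the class wild-type replicate 1 was the lowest and replicate 3 the highest of the wild-type libraries, and knockout replicate 4 lay above the wild-type range in all 5. The spread of Elane within the knockout group, 217 CPM (SD), was larger than the difference of the group means, 299 against 345 CPM.

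Secondary granule genes held the most stable call. Ltf (chromosome 9, 111019271 to 111042767, plus strand), the gene of lactoferrin, an iron-binding protein that marks secondary granules, read 2579, 2198 and 2874 CPM in wild type and 1471, 1256, 1600.0 and 1639 CPM in knockout libraries. Each of the 4 knockout libraries read lower than each of the 3 wild-type libraries, and replicate 4 did not stand apart from the other 3. Ltf fell by 0.77 on the log2 scale (SE 0.14, 95% interval -1.10 to -0.45, edgeR adjusted p = 0.00939), from 2550.3 ± 339 to 1492 ± 172 CPM. It was the only one of the 34 genes called in each of the 15 alternative fits, with estimates from -0.87 to -0.68.

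Ngp, the gene of neutrophilic granule protein, read 4541, 3348 and 4414 CPM in wild type and 2261, 1930.0, 2434 and 3317 CPM in knockout libraries, and fell by 0.72 on the log2 scale (SE 0.20, edgeR adjusted p = 0.0401). Lcn2, the gene of lipocalin 2, which binds bacterial siderophores, read 1229, 1086 and 1365 CPM in wild type and 706, 625, 651 and 1076 CPM in knockout libraries and fell by 0.68 (SE 0.20, adjusted p = 0.0456). In both genes the highest knockout library was still under the lowest wild-type one, with replicate 4 the closest to the wild-type range, and both calls were lost without any one of the other 6 libraries. Camp, the gene of the cathelicidin antimicrobial peptide, read 1464, 1377 and 1476 CPM in wild type and 924, 635, 744 and 1239 CPM in knockout libraries and did not pass the test (log2 fold change -0.70, SE 0.21, adjusted p = 0.0511), although the groups did not overlap. Without knockout replicate 4 the log2 fold changes of Ngp, Lcn2 and Camp were -0.89, -0.89 and -0.90, each called (edgeR adjusted p = 0.0104, 0.00323 and 0.0062).

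Mmp8 (chromosome 9, 7558456 to 7568485, plus strand), the gene of neutrophil collagenase, went the other way. It read 95.5, 76.3 and 94 CPM in wild type and 144, 133, 99.6 and 158 CPM in knockout libraries. Each knockout library lay above each wild-type library, by the least margin in replicate 3. Mmp8 rose by 0.59 on the log2 scale (SE 0.16, 95% interval 0.24 to 0.95, edgeR adjusted p = 0.0358), from 88.6 ± 10.7 to 134 ± 24.9 CPM. The call was lost without any library but knockout replicate 3, at log2 fold changes from 0.49 to 0.65 in those fits.

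The other 7 genes of the class were not called. Cd177, a surface glycoprotein that in human neutrophils presents proteinase 3, had a log2 fold change of -0.56 (SE 0.17), and Pglyrp1, a peptidoglycan-binding granule protein, one of -0.48 (SE 0.16). Without knockout replicate 4 they were -0.69 and -0.63 and called (edgeR adjusted p = 0.0179 and 0.00703). Fcnb, the lectin ficolin B, read below the wild-type range in knockout replicates 1 to 3 and above it in replicate 4. Its log2 fold change was -0.50 (SE 0.45) with all libraries and -1.02 without knockout replicate 4, where it was called (edgeR adjusted p = 0.0277). Anxa1, the gene of annexin A1, had -0.33 with all libraries and -0.57 without that replicate (called, edgeR adjusted p = 0.0417), which at 620.0 CPM lay within the wild-type range. Chil3, the chitinase-like protein Ym1, Lrg1, a secreted leucine-rich glycoprotein of granules, and Mmp25, a membrane-anchored metalloproteinase, gave 0.24, -0.16 and 0.08. Chil3 has a close relative, Chil4, which had a mean of 0.0418 CPM in the knockout libraries and no count in the wild type.

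In the mature class the 5 called genes were lower in the knockout libraries, the calprotectin genes among them. S100a8 (chromosome 3, 90668978 to 90670035, plus strand) read 2411, 2603 and 3587 CPM in wild type and 1786, 1691, 1465 and 2117 CPM in knockout libraries, and S100a9 read 4164, 3839 and 4244 CPM in wild type and 2579.5, 2235, 1977 and 3469 CPM in knockout libraries. Neither pair of groups overlapped, and knockout replicate 4 came closest to the wild type in both. S100a8 fell by 0.70 (SE 0.18, edgeR adjusted p = 0.0305) and S100a9 by 0.67 (SE 0.19, adjusted p = 0.0441) on the log2 scale. Padi4, the enzyme that citrullinates histones in neutrophil extracellular traps, read 60.2, 48.3 and 70.1 CPM in wild type and 30.5, 40.8, 39.6 and 39.6 CPM in knockout libraries, without overlap (log2 fold change -0.66, SE 0.15, adjusted p = 0.0196). Itgam, the alpha chain of the integrin Mac-1 that is also expressed by monocytes and macrophages, read 139.5, 111 and 101 CPM in wild type and 50.4, 60.5, 68.7 and 89.2 CPM in knockout libraries, again without overlap (log2 fold change -0.80, SE 0.19, adjusted p = 0.0254). These calls, too, were lost in some fits that left out a single library. Over all genes the number called fell as well, from 2455 to between 1050 and 1326 without any 1 of the wild-type replicates. It was 1384 to 2553 without any 1 of the knockout replicates. The call of S100a9 was lost without any library but knockout replicate 4, and that of S100a8 without any but wild-type replicate 1 and knockout replicate 4. Padi4 lost its call without wild-type replicate 1 or 3, and Itgam without wild-type replicate 1 or 2 or knockout replicate 2. The log2 fold changes in the 15 alternatives stayed below 0 in these 4 genes, from -0.86 to -0.56 in S100a9, -0.81 to -0.51 in S100a8, -0.80 to -0.53 in Padi4 and -0.97 to -0.66 in Itgam.

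G0s2, an inhibitor of triglyceride lipase in fat cells that is also expressed by neutrophils, read 11, 10.3 and 13.7 CPM in wild type and 6.56, 9.24, 5.9 and 6.33 CPM in knockout libraries (log2 fold change -0.74, SE 0.20, adjusted p = 0.0374). It lies within the span of the opposite-strand gene Lamb3, whose counts were 131% of its own. Lamb3 itself stood at 15.8 ± 0.591 CPM in wild type and 8.82 ± 1.41 CPM in the knockout (edgeR log2 fold change -0.84, SE 0.16, adjusted p = 0.0103). Whether exons of the pair overlap was not examined. If they do, reads from the shared stretch cannot be told apart without the strand setting. The call of G0s2 was lost without any library but knockout replicate 2, at log2 fold changes from -0.83 to -0.61.

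Neither receptor gene, Csf3r or Cxcr2, was called with all libraries. Csf3r, the receptor of granulocyte colony-stimulating factor, read 331, 368 and 439 CPM in wild type and 506, 630.5, 454 and 378 CPM in knockout libraries. Knockout replicates 1 to 3 lay above the wild-type range and replicate 4 within it (log2 fold change 0.38, SE 0.18, adjusted p = 0.182, not called). Cxcr2, the receptor of neutrophil-attracting CXC chemokines, had a log2 fold change of 0.39 (SE 0.21, edgeR adjusted p = 0.246) that became 0.54 and passed without replicate 4 (adjusted p = 0.0288). Retnlg, a resistin-like secreted protein of neutrophils, gave 0.35 (SE 0.19) and was not called. Ly6g, the surface antigen used to define mouse neutrophils, gave -0.32 (SE 0.21) and was not called.

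Among inflammatory genes, Il1rn had the largest estimate of the 34 at 1.12 (SE 0.34), with 20.7, 17.7 and 13.1 CPM in wild type and 57.6, 42.3, 24.5 and 24.6 CPM in knockout libraries. Its groups did not overlap, but the adjusted p of 0.0606 (edgeR) did not pass. Without knockout replicate 4 it was 1.28 and called (adjusted p = 0.0439). Il1b, the gene of interleukin 1 beta, gave 0.10 (SE 0.49) and Cxcl2, a chemokine gene, 0.49 (SE 1.03). For Cxcl2 the knockout libraries ran from 1.74 to 34.8 CPM, far wider than the wild type's 3.11 to 12 CPM. The lectin receptor gene Clec4d and the receptor Trem1 gave 0.30 and -0.14. The remaining genes of the class, Wfdc21, Ifitm6 and Stfa2l1, gave -0.69, -0.33 and 0.20, none called. Wfdc21, a whey acidic protein family gene, read 101, 101 and 99.2 CPM in wild type and 59.1, 46.9, 38.6 and 103 CPM in knockout libraries, and without replicate 4 it was -1.05 and called (edgeR adjusted p = 0.00233). Ifitm6, an interferon-induced transmembrane family gene, was -0.50 without that replicate and called (adjusted p = 0.0109). Stfa2l1 belongs to a family of near-identical stefin genes, so its counts are uncertain.

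**Figure D3:**
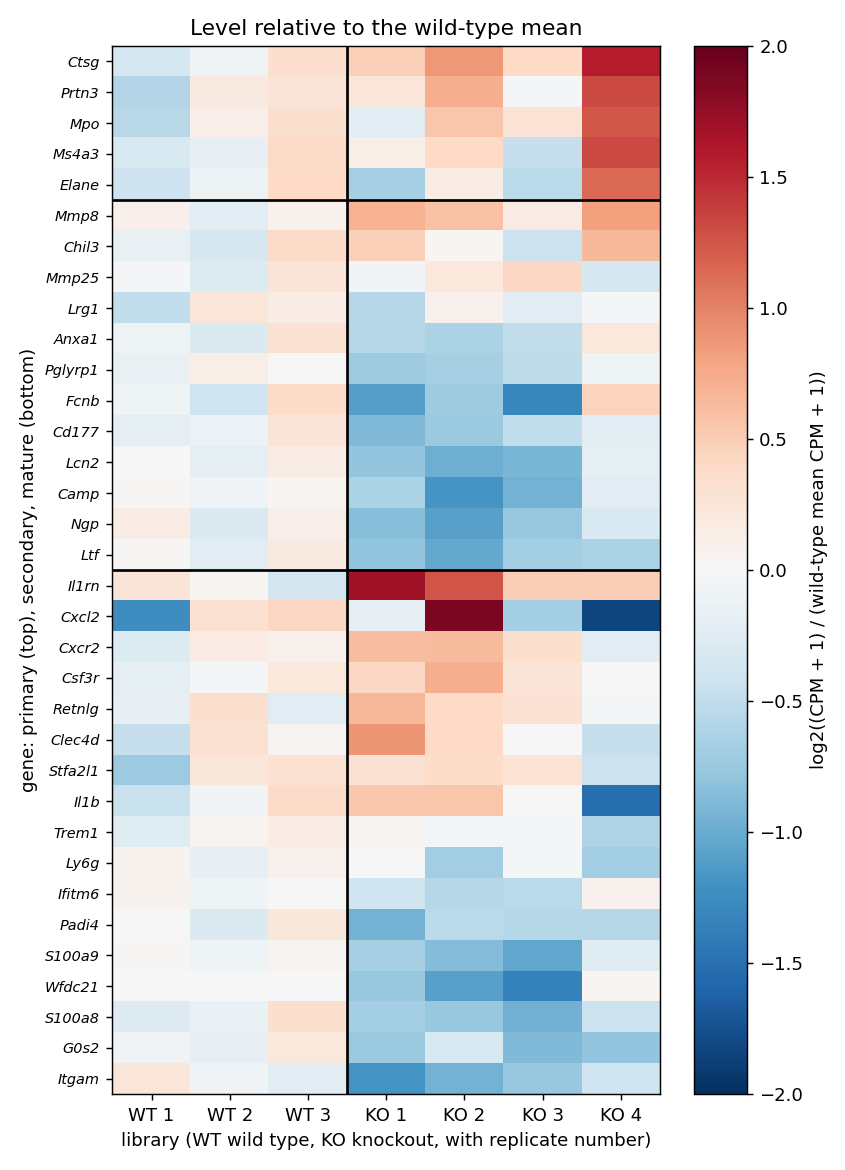
Level of each of the 34 genes in each library relative to the mean of the 3 wild-type libraries, as the log2 ratio of CPM with 1 added to both, with genes in rows by class and libraries in columns. Knockout replicate 4 has higher values than the other knockout libraries in the primary granule rows.

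Of the 34 genes, 11 were flagged as also expressed by monocytes or macrophages, and 3 of these were called lower. Among the 23 without this flag, 5 were called lower and 1 higher. The 23 include Ms4a3, which marks granulocyte and monocyte progenitors, so they are not a set restricted to neutrophils. These shares, 27.3% and 21.7% lower and 0 and 4.35% higher, stand beside 6.83% lower and 8.71% higher among all genes tested. Summed levels of 12 monocyte and macrophage markers were 559 to 742 FPKM in wild type and 863 to 1357 FPKM in the knockout, with 4 called higher and 1 lower and none at 0. Their part in the results was not tested.

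Sums over the classes were compared per library. The 5 primary granule genes summed to 487 to 864 FPKM in wild type and 610.2 to 1609 FPKM in the knockout, and the 12 secondary granule genes to 7167 to 9287 and 4742 to 7793 FPKM. The primary sum was 5.73, 9.55 and 9.3% of the secondary sum in wild-type replicates 1 to 3, and 10.4, 19.8, 12.3 and 20.7% in knockout replicates 1 to 4. Every knockout ratio was above the wild-type ratios. The mature genes summed to 11861 to 14076 FPKM in wild type and 6535 to 10289.8 FPKM in the knockout, without overlap. These sums follow the few most abundant genes of each class.

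**Figure D4:**
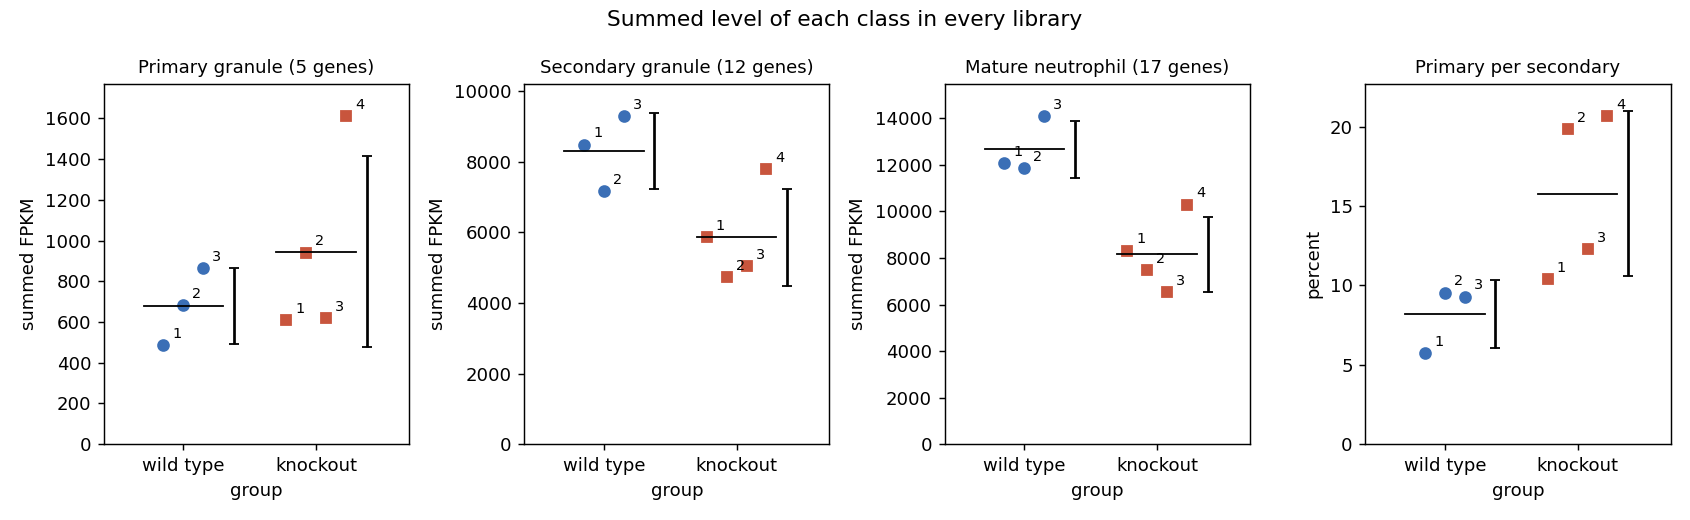
Summed FPKM of the primary granule, secondary granule and mature neutrophil genes, and the primary sum as a percent of the secondary sum, with 1 numbered point per library, a line at the group mean and an error bar of 1 SD. The mature sums of the 4 knockout libraries, up to 10289.8 FPKM, lie below those of the 3 wild-type libraries, from 11861 FPKM.

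Camp, Ngp and Ltf lie 1.77, 2.34 and 2.94 megabases from the gene with the symbol Mst1 on chromosome 9, while Lcn2, S100a8 and S100a9 lie on other chromosomes. Log2 fold changes were -0.70, -0.72 and -0.77 for the first 3 and -0.68, -0.70 and -0.67 for the others. The latter are a selection from the genes called lower. Estimates of the genes on other chromosomes ran from -0.80 for Itgam to 1.12 for Il1rn. Mmp8, also on chromosome 9, lies 101 megabases away and had an estimate of 0.59. Any part of chromosomal position in these values was not tested.

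Regulators and companions of these genes were described from 9 lists outside the 34. Their calls stand beside 8.71% higher and 6.83% lower among all genes tested. Among 10 transcription factors of granulopoiesis, 2 were called higher and none lower. Cebpa, the gene of the C/EBP alpha factor that commits progenitors to the granulocyte and monocyte lineage, read 75.6, 78.1 and 81.8 CPM in wild type and 129, 144, 136 and 156 CPM in knockout libraries. The groups did not overlap, and it rose by 0.85 (SE 0.09, edgeR adjusted p = 0.00119) on the log2 scale. Spi1, which encodes PU.1, rose by 0.36 (adjusted p = 0.0479), and Myb, a progenitor factor, gave 0.53 without passing (adjusted p = 0.0525). Ctsc, the protease that activates the serine proteases of primary granules, rose by 1.22 (SE 0.29, adjusted p = 0.0259), as 1 of 5 genes tested on protease processing. Cebpa was called in all 15 alternative fits, with estimates from 0.79 to 0.89. Spi1 was called in 7 of them and Ctsc in 9. The call of Spi1 was lost without any library but knockout replicate 3 (over the 15 fits 0.28 to 0.42), and that of Ctsc without any but wild-type replicate 1 and knockout replicate 3 (over the 15 fits 1.08 to 1.49).

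Of 10 other granule genes tested, 2 were called lower and none higher, beside 6.83% lower and 8.71% higher among all genes tested. Orm1, the gene of orosomucoid, an acute-phase protein, fell by 1.07 (adjusted p = 0.02) and Itgb2l, an integrin beta subunit-like protein of neutrophils, by 1.66 (adjusted p = 0.0328), both by edgeR. Of 6 genes of the NADPH oxidase, which produces superoxide, Ncf4 rose by 0.70 (adjusted p = 0.0243). This 1 call is 16.7% of the list, near the 15.5% of all genes tested that were called in either direction. Among 13 chemoattractant, adhesion and Fc receptor genes, 3 were called higher and 1 lower, Cxcr4 (-0.50, adjusted p = 0.0322), a homing receptor that was named after its value was seen. The 3 were Ptafr (1.20), Fpr2 (0.82) and Ccr1 (1.5), receptors of platelet-activating factor, formyl peptides and CC chemokines. Of 7 interleukin 1 genes, Nlrp3, an inflammasome sensor, rose by 0.65 (adjusted p = 0.0211), which as 1 call is 14.3% of the list and also near 15.5%. Of 2 tested cytokine genes, Csf1, the growth factor of macrophages, rose by 0.68 (adjusted p = 0.0404). In the stefin list 2 of the 6 genes in the table were tested and neither was called. Of 8 cell division genes 6 were called higher, which were Tyms (1.13), Ccna2 (0.87) and Birc5 (0.62) by the smallest p, and Ccnb1, Mcm5 and Cdk1, named after their values were seen. Ptafr, Fpr2, Ccr1, Tyms and Ccna2 were called in all 15 alternative fits. The other called genes of these lists kept their direction in all 15 but lost calls with single libraries. Orm1 and Birc5 lost theirs without any 1 of the wild-type replicates, and Ncf4 without these or knockout replicate 2. Nlrp3 lost its call without wild-type replicate 2 or 3 or knockout replicate 2, Itgb2l without any library but knockout replicate 1, and Csf1 without any but knockout replicate 3. Cxcr4 lost its call without wild-type replicate 2 or 3 or knockout replicate 1 or 2, Ccnb1 without wild-type replicate 1 or 2 or knockout replicate 2, and Mcm5 without any 1 of the wild-type replicates or knockout replicate 2. Cdk1 lost its call without any library but wild-type replicate 3 and knockout replicate 3. Their log2 fold changes over the 15 fits were -1.25 to -0.89 for Orm1, 0.48 to 0.69 for Birc5, 0.57 to 0.82 for Ncf4, 0.56 to 0.77 for Nlrp3, -2.08 to -1.37 for Itgb2l, 0.57 to 0.83 for Csf1, -0.60 to -0.40 for Cxcr4, 0.73 to 1.12 for Ccnb1, 0.42 to 0.58 for Mcm5 and 0.43 to 0.71 for Cdk1.

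Markers of other cell types moved in the same comparison. Their calls stand beside 6.83% lower and 8.71% higher among all genes tested. T cell markers were called lower for 9 of 10, among them Trac (-2.11), Thy1 (-1.61) and Icos (-1.70) on the log2 scale. B cell markers were called by edgeR for none of 6, with 5 lower at an unadjusted p under 0.05, and the sums of B cell markers were 1289 to 1889.5 FPKM in wild type and 428 to 1081 FPKM in the knockout. Erythroid markers were called higher for 8 of 8, and stem and progenitor markers for 3 of 6 tested. Of 12 eosinophil, basophil and mast cell markers 2 were called lower and none higher, while 9 had estimates above 0 (median log2 fold change 0.61). The sums of the last list were 208 to 333 FPKM in wild type and 228 to 723 FPKM in the knockout. The sums of stem and progenitor markers were 12.4 to 14.1 FPKM in wild type and 17.3 to 23.4 FPKM in the knockout. Cell division genes summed to 212 to 281 FPKM and 329 to 478 FPKM. The part of these cells in the neutrophil gene results was not tested.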

How the data were processed

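Each of the 7 libraries has 1 column of counts and 1 of FPKM in the deposited table, per the file headers, over 54532 genes. The counts are whole numbers with no normalization, and the FPKM values are those of the authors, per the file headers. The submitters' processing notes name GRCm38 (mm10) as the build, and the aligner and the counting tool are not given in the sources used here. Counts of 15795 genes that passed filterByExpr were fitted with edgeR 4.0.16 in R 4.3.3 (TMM, robust quasi-likelihood test, genotype as the only term), with Benjamini-Hochberg adjustment over all of them, and called at an adjusted p under 0.05. CPM are TMM-scaled counts with mean ± SD. All 34 genes are named. Values by library are given for the genes of each class with the smallest p and the highest FPKM. Outside this rule, they are also given for the mature genes Csf3r, Il1rn and Wfdc21. Ratios, single genes outside the lists and the promoters shown were chosen after the values were seen. The 34 genes and the lists were chosen with earlier results of these data known. Where groups are compared by whether they overlap, no test was made. The p-values set the difference between groups against the spread between these libraries, which was estimated in part with information shared across genes. They cover no variation beyond these libraries. Library pairs differed by more than sampling noise, so each was counted. Alternatives were DESeq2 1.42.0, limma 3.58.1 with voom weights or on log2 FPKM with a pseudocount of 1, DESeq2 size factors, total library size, no filter, a mean of at least 1 CPM, a replicate block and each library left out in turn. The closing sections give their effect.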

Additional observations from a re-analysis of the deposited data

Results flagged for a closer look

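In 3 of the 34 genes a library of the knockout group stood far from the other 3 by Dixon's criterion, which flags about 1 in 20 groups by chance. Knockout replicate 4 stood high for Anxa1 at 620.0 CPM and low for Stfa2l1 at 2.86 CPM. Knockout replicate 1 stood low for Padi4 at 30.5 CPM. None of these libraries was left out of the results above.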

How the results depend on the processing

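Of the 34 genes, Ltf alone passed in all 15 alternatives. DESeq2 called 3 of the 34 genes higher, with 1 primary and 1 mature gene among them, and 6 secondary granule genes lower (all genes 11.7% higher, 9.75% lower). Without a filter 6 secondary granule genes were lower (all genes 5.13% higher, 3.79% lower). With limma on log2 FPKM 0 genes were higher and 4 lower, 0 secondary granule genes higher, 1 lower, and 3 mature genes lower (all genes 7.8% higher, 6.52% lower). Without the genes flagged as shared with monocytes or macrophages 5 genes were lower in all and 2 in the mature class. Leaving out each library in turn, 0 to 2 of the 34 genes were higher and 2 to 14 lower; for the secondary class 0 to 1 higher and 1 to 8 lower, for the mature class 0 to 2 higher and 1 to 6 lower (all genes 3.94 to 9.11% higher, 2.53 to 7.32% lower). Of the genes in the other 9 lists, 6 to 17 were higher and 0 to 4 lower, a set added after the data were seen, beside 15 and 3 with all libraries.

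Deviations of same-numbered libraries correlated at -0.05, 0.00465 and 0.23 for replicates 1 to 3. Wild-type replicates 1 and 2 did not correlate best with the knockout library of their own number, while replicate 3 did. The labels state no pairing, and these correlations cannot exclude one. A replicate block, in which knockout replicate 4 has no wild-type partner and so adds nothing to the genotype term, called 2 genes higher and 13 lower, 0 secondary granule genes higher and 7 lower, and 2 mature genes higher (all genes 7.36% higher, 6.05% lower).

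Some signs turned, and the cause was not tested. With the block the mature median and Trem1, the gene at that median, turned to 0.0035 each, and Elane to -0.31. Il1b turned to -0.068 with voom and -0.059 with log2 FPKM, and Cxcl2 to -0.11 with voom. Leaving out each library in turn, log2 fold changes crossed 0 for the mature median and Trem1 (both -0.25 to 0.00030, the highest without knockout replicate 4), Elane (-0.30 to 0.45, lowest without knockout replicate 4), Mmp25 (-0.047 to 0.23, lowest without knockout replicate 3), Stfa2l1 (-0.11 to 0.42, lowest without wild-type replicate 1), Il1b (-0.096 to 0.40, lowest without knockout replicate 2) and Cxcl2 (-0.86 to 0.86, lowest without knockout replicate 2).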

Other observations

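Ratios between single genes were compared per library in CPM, without scaling to gene length. They were chosen after their values were seen and are therefore given without a test. Mmp8 was 3.27 to 3.7% of Ltf in wild type and 6.22 to 10.6% in the knockout. Csf3r was 12.2 to 14.1% of S100a8 in wild type and 17.8 to 37.3% in the knockout. Ctsg was 1.15 to 1.92% of Ngp in wild type and 3.64 to 6.38% in the knockout. The ranges did not overlap between the groups in any of these 3 ratios. For Mmp8 to Ltf and Ctsg to Ngp this had to follow, since the groups of each single gene already did not overlap, in opposite directions. A further ratio, Elane over Ltf, did overlap, at 0.0866 to 0.137 in wild type and 0.128 to 0.400 in the knockout.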
